A study of Mus musculus with 24 samples.

Results

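The comparison described here set the distal jejunum of untreated female *Ptk6*-/- mice against that of untreated female wild type (WT) mice, by bulk RNA sequencing of 3 mice per genotype. It takes 6 of the 24 libraries of the study, which also sequenced males and succinate-treated mice. The 3 WT and 3 *Ptk6*-/- libraries were chosen by the sex, genotype and control labels of the samples and by the columns of the count table that carry those labels. Genes were kept when 3 or more of these 6 libraries had 10 or more counts, which left 19035 of the 56691 genes of the table. The *Ptk6*-/- mice carry a germline disruption of *Ptk6* in every tissue, so the model is not restricted to 1 intestinal cell type. Both genotypes were age-matched adults on the C57BL/6 background, from different litters of 1 breeding colony, and neither group received succinate. The question was which transcripts of the untreated female intestine differ when the kinase is missing.

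PTK6 (protein tyrosine kinase 6, also called BRK) is a non-receptor tyrosine kinase related to the SRC family, and its closest relatives are FRK and SRMS. In the intestine it is known from differentiated epithelial cells of the villus. It acts downstream of receptors of the EGF family and phosphorylates RNA-binding proteins such as SAM68, transcription factors such as STAT3 and STAT5B, and adaptor proteins. The jejunal epithelium is renewed from crypt stem cells and holds absorptive enterocytes, mucus-secreting goblet cells, hormone-secreting enteroendocrine cells, chemosensory tuft cells and, at the crypt base, Paneth cells, which release alpha-defensins. A piece of whole jejunum also contains muscle, nerves, fibroblasts and lymphoid tissue. In such bulk samples, fewer cells of a type and less RNA per cell cannot be told apart.

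Total counts were between 34248289 and 49672583 per library. Transcripts of enterocytes (*Sis*, *Fabp2*), Paneth cells (*Lyz1*) and goblet cells (*Muc2*) were present in all 6 libraries, as was the distal intestinal *Fabp6*, while the liver genes *Alb* and *Ahsg* and the pancreatic genes *Prss2* and *Cpa1* were at 0 in all 6. All 6 libraries had between 3544 and 8654 counts of *Xist* and at most 10 counts of each of 4 Y-linked genes, as female tissue should. Replicate 3 of the *Ptk6*-/- mice stood apart from the other 5 libraries. Genes of the mitochondrial genome took 8.54% of its counts against 2.19% to 5.66% in the others, and its TMM scaling factor of 0.800 was the lowest (0.915 to 1.18 in the others). Replicate 1 of the *Ptk6*-/- mice had the largest share of ribosomal RNA counts, 2.77% against 0.178% to 0.417% in the others. Libraries also differed in how the counts depended on gene length: the slope of log2 CPM (counts scaled to library size) on log2 length was −0.0824 to 0.000452 in WT, 0.0875 and 0.131 in replicates 1 and 2 of the *Ptk6*-/- mice, and −0.0927 in replicate 3. The first principal component of the 6 libraries held 55.7% of the variance and put replicates 1 and 2 of the *Ptk6*-/- mice at one end and replicate 3 at the other, beside WT replicate 2. Its correlation with the length slope over the 6 libraries was −0.995. Results are therefore given with all 6 libraries and, where it moves them, without that library and with an offset for the length trend. Without replicate 3 the length slope separates the genotypes completely, and length trend and genotype then cannot be told apart. The offset removes any difference that follows gene length, whether it comes from the genotype or from the library, so it does not separate them.

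In *Ptk6*-/- mice 3 of the 19035 genes tested passed edgeR's quasi-likelihood test (p adjusted by Benjamini-Hochberg under 0.05) and differed at least 2-fold. One gene was higher (0.00525% of those tested) and 2 were lower (0.0105%). The lower genes were *Ptk6* itself and *Pagr1a*, and the higher gene was *Scgb1a1*. An unadjusted p under 0.05 was found for 2115 genes, the 3 included, of which 1158 (6.08%) were higher and 957 (5.03%) lower. Normalized levels did not overlap between the genotypes for 1811 higher genes (9.51%) and 1784 lower genes (9.37%).

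The disrupted gene checked the labels of all 6 libraries. *Ptk6* (ENSMUSG00000038751, chromosome 2, 180835514 to 180844582) had 2229, 1634 and 1227 counts in the WT libraries and 24, 31 and 33 counts in the *Ptk6*-/- libraries. Normalized to library size with TMM factors, these were 48.9, 35.97 and 27.2 CPM in the WT libraries and 0.595, 0.683 and 0.966 CPM in the *Ptk6*-/- libraries. Every *Ptk6*-/- library was far below every WT library, and 24 to 33 reads per library were still counted on the locus. The means were 37.4 ± 10.9 CPM in WT and 0.748 ± 0.194 CPM in *Ptk6*-/- mice (SD, n = 3 each), a fall by 5.64 on the log2 scale with a standard error (SE) of 0.36 and an adjusted p from edgeR of 0.00632. The ratio of the group means was 49.9-fold. Even this gene was not called when WT replicate 2 or *Ptk6*-/- replicate 1 or 2 was left out (edgeR adjusted p = 0.0629, 0.0844 and 0.0710). The fold change in control males, which are other mice, was −5.04 on the log2 scale and in succinate-treated females −4.65.

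The relatives and partners of the kinase were mostly at similar levels in both genotypes. *Frk*, which encodes the closest kinase expressed in the intestine, had 59.02, 56.2 and 55.4 CPM in the WT libraries and 63.7, 92.9 and 59.1 CPM in the *Ptk6*-/- libraries. The *Ptk6*-/- libraries were all slightly higher, with a log2 fold change of 0.34 ± 0.24 (SE, edgeR adjusted p = 0.613). *Srms*, the other relative, was too low to be tested. Of 19 genes tested for PTK6 substrates and partners, 1 was higher and 1 lower at an unadjusted p under 0.05, and 0 were called. The lower gene was *Dok1*, which encodes an adaptor that is phosphorylated by tyrosine kinases, with a log2 fold change of −0.80 (SE 0.22). The higher gene was *Egfr*, which encodes the EGF receptor. Transcripts of *Egfr* were at 17.1, 10.7 and 12.3 CPM in the WT libraries and 23.9, 26.03 and 18.2 CPM in the *Ptk6*-/- libraries, with a log2 fold change of 0.76 ± 0.27 (SE, edgeR adjusted p = 0.391). *Stat3* and *Stat5b*, for transcription factors that PTK6 phosphorylates, had log2 fold changes of 0.22 and 0.43, and *Khdrbs1*, for SAM68, had 0.23. Within 1 Mb of *Ptk6* on chromosome 2, 49 other genes were tested and 0 were called, with 4 higher and 3 lower at an unadjusted p under 0.05 and a median log2 fold change of 0.066 against 0.043 over all genes. Among the lower ones was *Ogfr*, described below. Without replicate 3 of the *Ptk6*-/- mice, *Ogfr*, *Stmn3*, *Rps21* and *Ppdpf* were called lower, against 6.13% of all genes. *Rbbp8nl* and *Zfp512b* were called higher in that fit, against 3.52%.

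The receptors and ligands of the EGF family, which signal upstream of PTK6, had 2 genes higher and 1 lower at an unadjusted p under 0.05 among 13 tested. The lower gene was *Areg*, which encodes the ligand amphiregulin. *Areg* transcripts were at 5.48, 10.3 and 6.31 CPM in the WT libraries and 1.98, 3.04 and 2.63 CPM in the *Ptk6*-/- libraries. The genotypes did not overlap, and the log2 fold change was −1.53 ± 0.34 (SE, edgeR adjusted p = 0.367 with all libraries and 0.0362 without replicate 3 of the *Ptk6*-/- mice). *Nrg1*, which encodes the ligand neuregulin 1, had a log2 fold change of 1.01 (SE 0.26).

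*Pagr1a* (ENSMUSG00000030680, chromosome 7, 126614205 to 126616524) encodes a protein of the complexes that carry the histone H3 lysine 4 methyltransferases MLL3 and MLL4. It had 941, 1153 and 822 counts in the WT libraries and 67, 65 and 52 counts in the *Ptk6*-/- libraries, which is 20.6, 25.4 and 18.3 CPM in the WT libraries and 1.66, 1.43 and 1.52 CPM in the *Ptk6*-/- libraries. The *Ptk6*-/- libraries lay close together and far under the WT libraries, with 21.4 ± 3.63 CPM in WT and 1.54 ± 0.116 CPM in *Ptk6*-/- mice (SD, n = 3 each). The gene fell by 3.80 on the log2 scale (SE 0.26, edgeR adjusted p = 0.00632), or 13.9-fold in the means, and was not called when WT replicate 1 or 2 or *Ptk6*-/- replicate 1 or 2 was left out. Other genes overlap *Pagr1a* on the same strand. One of them is *Gm42742*, which starts further upstream and whose annotated span covers nearly all of *Pagr1a*. *Gm42742* had 815, 1604 and 1274 counts in the WT libraries and 1178, 1180 and 1367 counts in the *Ptk6*-/- libraries, a log2 fold change of 0.22 ± 0.31 (SE, edgeR adjusted p = 0.808). When the counts of *Pagr1a*, *Gm42742* and *Pagr1b* were summed, the locus had a log2 fold change of −0.55 ± 0.26 (SE, edgeR adjusted p = 0.469). The sum of the locus thus did not pass the test, and how reads were shared between these genes was not tested. In control males the log2 fold change of *Pagr1a* was −1.69, and in succinate-treated females it was 1.59.

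The sequence before the start of *Pagr1a* is shown because this is the gene with the largest fall after *Ptk6*. It is the 250 bases up to the RefSeq start, on the minus strand at chr7:127017353-127017602 of GRCm38.p6, which is a different build from that of the counts. Capitals mark the letters CGCATGCG, the palindromic core of the motif of nuclear respiratory factor 1 (a transcription factor of many housekeeping genes). The core is present 2 times, beginning 116 and 49 bases before the start.
Pagr1a: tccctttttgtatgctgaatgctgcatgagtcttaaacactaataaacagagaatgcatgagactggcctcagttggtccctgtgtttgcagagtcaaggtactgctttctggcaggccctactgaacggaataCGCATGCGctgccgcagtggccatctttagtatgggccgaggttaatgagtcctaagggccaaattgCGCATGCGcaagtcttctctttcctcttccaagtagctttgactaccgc
These 8 letters are in the same window of 428 of 27025 RefSeq promoters (1.58%). The promoters of *Ptk6* and *Scgb1a1* are not in the table used here.

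*Scgb1a1* (ENSMUSG00000024653, chromosome 19, 9061000 to 9065322) encodes a secretoglobin of the club cells of the airways. It had 0, 0 and 0 counts in the WT libraries and 285, 321 and 355 counts in the *Ptk6*-/- libraries, so all 3 *Ptk6*-/- libraries held it and no WT library had a read. Against a floor of 3 counts in each WT library, its mean in *Ptk6*-/- mice was at least 124-fold higher (edgeR adjusted p = 0.0211). The gene passed the filter of 10 counts in 3 libraries only through the *Ptk6*-/- libraries, so among the genes tested it could differ in this direction alone. The call was lost when any of the 3 WT libraries was left out, and also without *Ptk6*-/- replicate 1 or 2 once genes with 10 counts in 2 libraries were admitted, and it remained called without *Ptk6*-/- replicate 3 under that filter. *Sftpc*, which encodes surfactant protein C of alveolar cells, had 0, 0 and 0 counts in the WT libraries and 98, 121 and 170 counts in the *Ptk6*-/- libraries and was at least 50.8-fold higher in means (edgeR adjusted p = 0.124). *Sftpa1* had 0, 0 and 0 counts in the WT libraries and 29, 28 and 29 counts in the *Ptk6*-/- libraries, at least 11.01-fold higher (edgeR adjusted p = 0.367). *Cyp2f2*, a cytochrome P450 of club cells, had 8, 0 and 0 counts in the WT libraries and 61, 41 and 46 counts in the *Ptk6*-/- libraries. These 4 genes were low in absolute terms: *Scgb1a1* reached 10.4 CPM at most.

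Other markers of lung tissue did not all follow *Scgb1a1*. Over 9 defining markers (*Scgb1a1*, *Sftpc*, *Sftpb*, *Sftpa1*, *Sftpd*, *Scgb3a2*, *Napsa*, *Cyp2f2* and *Ager*) the summed counts were 263 to 345 in the WT libraries and 767 to 901 in the *Ptk6*-/- libraries. In each WT library 3 of the 9 markers had more than 3 counts, and in the *Ptk6*-/- libraries 8, 9 and 9 had. Most of this difference was in *Scgb1a1* and *Sftpc*, without which the sums were 263 to 345 in the WT libraries and 304 to 459 in the *Ptk6*-/- libraries. *Sftpb* had 0 to 15 counts in the WT libraries and 18 to 27 in the *Ptk6*-/- libraries, and *Scgb3a2* and *Sftpd* had 0 in all WT libraries and 3 to 15 in the *Ptk6*-/- libraries. *Napsa*, at 114 to 227 counts in the WT libraries and 100 to 234 in the *Ptk6*-/- libraries, and *Ager*, at 103 to 134 and 59 to 103, did not have higher counts in *Ptk6*-/- mice. Across the 24 libraries, *Scgb1a1* was at 223, 291 and 209 counts in the *Ptk6*-/- females given succinate, at 0 in replicates 1 and 2 and 404 in replicate 3 of the WT females given succinate, and at 9 counts or fewer in all 12 males. In the 7 libraries with over 200 counts of *Scgb1a1*, the ratio of *Scgb1a1* to *Sftpc* counts was between 2.05 and 3.81. Of the whole list of 19 lung genes, 11 passed the filter on counts. *Scgb1a1*, *Sftpc*, *Sftpa1* and *Cyp2f2* passed it only through the *Ptk6*-/- libraries, so they could only come out higher, and no count over the list is given as support. The part of lung RNA in these values was not tested.

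**Figure D1:**
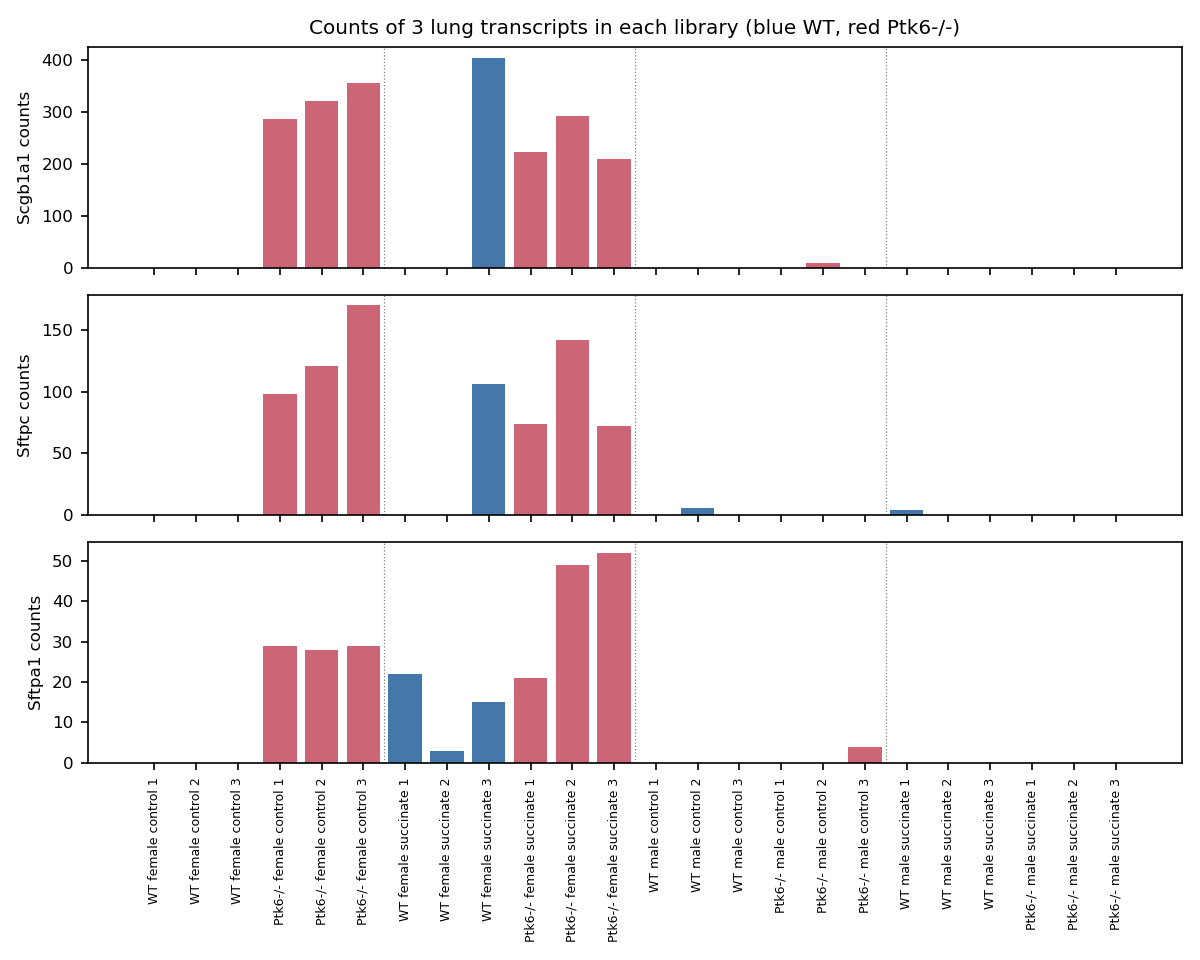
Counts of *Scgb1a1*, *Sftpc* and *Sftpa1* (vertical axes) in each of the 24 libraries (horizontal axis), with WT in blue, *Ptk6*-/- in red and dotted lines between sexes and treatments. *Scgb1a1* counts are 285, 321 and 355 in the female *Ptk6*-/- controls, 0 in the female WT controls, 404 in 1 WT female given succinate, and at most 9 in males.

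After these genes, those with the smallest p among genes whose libraries did not overlap, at an adjusted p of 0.124 or above, did not pass the test and are given by their values. Among the higher ones, *Pde4a*, which encodes a phosphodiesterase that degrades cyclic AMP, was at 0.767, 0.638 and 0.666 CPM in the WT libraries and 5.73, 5.88 and 3.75 CPM in the *Ptk6*-/- libraries. All 3 *Ptk6*-/- libraries exceeded every WT library, and the log2 fold change was 2.89 ± 0.33 (SE, edgeR adjusted p = 0.124). *Itga4*, which encodes the integrin alpha 4 chain of lymphocytes, was at 4.05, 2.88 and 3.44 CPM in the WT libraries and 11.96, 15.5 and 9.75 CPM in the *Ptk6*-/- libraries, a log2 fold change of 1.84 (SE 0.28). *Zfhx2*, which encodes a zinc finger homeobox protein, had 4.84, 6.76 and 6.62 CPM in the WT libraries and 15.5, 20.4 and 17.04 CPM in the *Ptk6*-/- libraries. *Plcb2*, a phospholipase C of the taste transduction pathway in tuft cells and of leukocytes, was at 3.57, 3.43 and 3.55 CPM in the WT libraries and 8.81, 8.72 and 7.90 CPM in the *Ptk6*-/- libraries. *Ptk6*-/- replicate 3 was the library nearest to WT for *Pde4a*, *Itga4* and *Plcb2*, and replicate 1 for *Zfhx2*.

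*Iars* (isoleucyl-tRNA synthetase), *Hmmr* (a mitotic spindle and hyaluronan-binding protein), *Patl1* (a factor of mRNA decay) and *Ubap2* had log2 fold changes of 1.19, 1.58, 1.14 and 1.13, each with an edgeR adjusted p of 0.367. *Pcdhga2*, one of the protocadherin genes that share their final exons, met the same conditions by p, but the 23 overlapping genes of its cluster had a summed log2 fold change of 0.09 (SE 0.23, edgeR adjusted p = 0.909). Without replicate 3 of the *Ptk6*-/- mice, *Pde4a*, *Itga4*, *Zfhx2*, *Iars*, *Hmmr*, *Plcb2*, *Patl1* and *Ubap2* were all called as higher, with edgeR adjusted p of 0.0268 for *Pde4a* and 0.0275 for the others. The genes were chosen by p and lack of overlap in libraries that this fit shares, so these calls give no independent support.

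Among the lower genes, *Arl4d*, which encodes a small GTPase of the ADP-ribosylation factor family, was at 40.3, 39.5 and 39.9 CPM in the WT libraries and 17.46, 14.7 and 15.04 CPM in the *Ptk6*-/- libraries. Its levels did not overlap and its log2 fold change was −1.34 ± 0.20 (SE, edgeR adjusted p = 0.367). *H1f2*, which encodes a linker histone, was at 151, 165 and 158 CPM in the WT libraries and 63.6, 63.98 and 40.3 CPM in the *Ptk6*-/- libraries, with a log2 fold change of −1.50 (SE 0.25). *Ogfr*, the opioid growth factor receptor, had 94.97, 148 and 105 CPM in the WT libraries and 49.5, 45.2 and 39.9 CPM in the *Ptk6*-/- libraries. Every *Ptk6*-/- library was under every WT library, and the log2 fold change was −1.37 (SE 0.25). The gene lies within 1 Mb of *Ptk6* on chromosome 2.

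*Acaa1a*, which encodes a thiolase of peroxisomal fatty acid oxidation, was at 271, 360.0 and 360.2 CPM in the WT libraries and 129.6, 124 and 152 CPM in the *Ptk6*-/- libraries. *Angptl4*, which encodes an inhibitor of lipoprotein lipase, was at 84.99, 126 and 99.4 CPM in the WT libraries and 46.98, 39.9 and 45.8 CPM in the *Ptk6*-/- libraries. Every *Ptk6*-/- library was under every WT library for both, and the log2 fold changes were −1.29 (SE 0.24) and −1.23 (SE 0.23), each with an edgeR adjusted p of 0.367. *Eef1b2*, a translation elongation factor, had a log2 fold change of −1.55, *Ebpl* of −1.51, *Uap1l1* of −1.26, *Ing2* (a histone-binding tumor suppressor) of −1.22 and *Rdm1* of −1.43, with the same adjusted p. All of *Arl4d*, *H1f2*, *Ing2*, *Ogfr*, *Ebpl*, *Acaa1a*, *Angptl4*, *Eef1b2*, *Uap1l1* and *Rdm1* were called as lower without replicate 3 of the *Ptk6*-/- mice (edgeR adjusted p = 0.0275 for each). As for the higher genes, they were chosen in libraries that this fit shares, so the calls give no independent support.

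**Figure D2:**
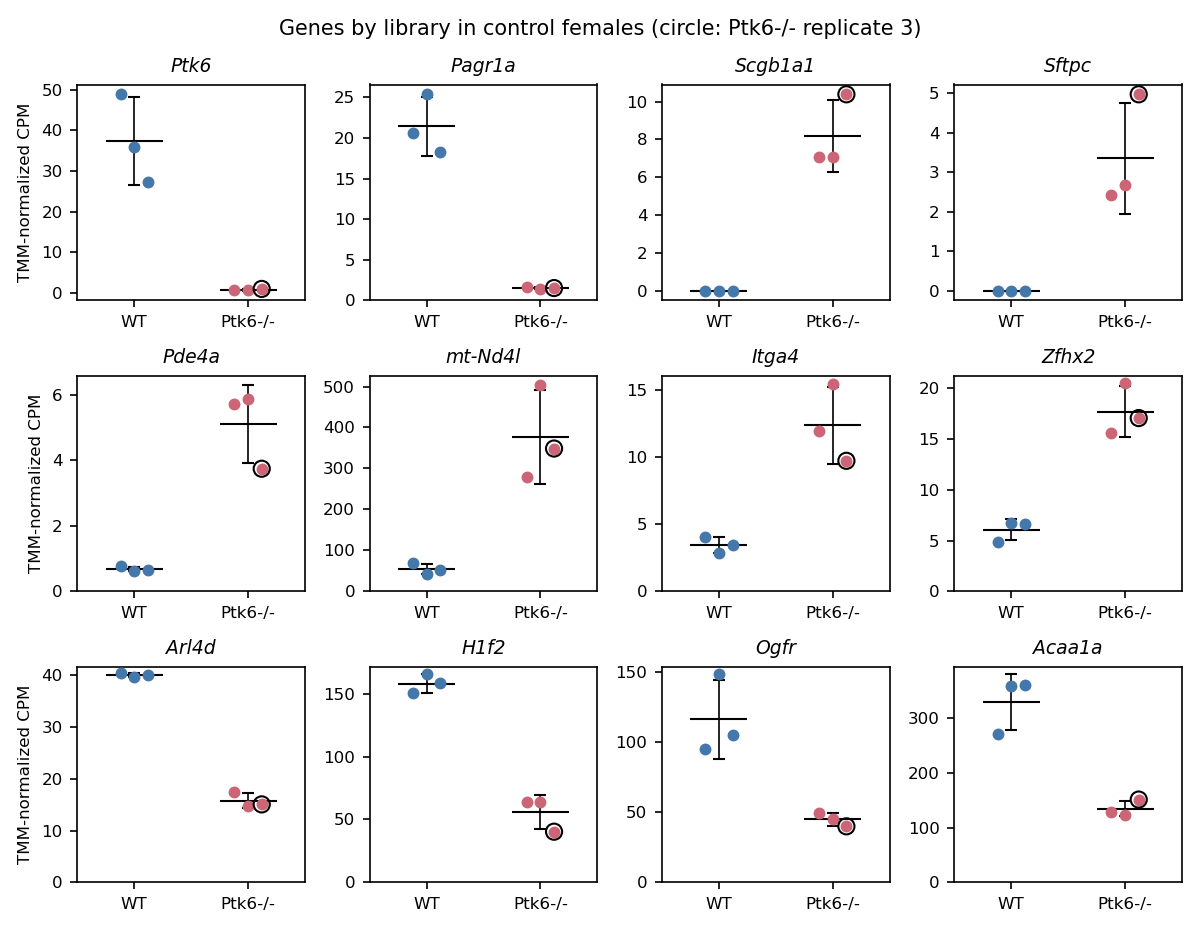
TMM-normalized CPM (vertical axes, linear) of 12 genes in the 3 WT (blue) and 3 *Ptk6*-/- (red) control females, with horizontal lines for the mean and error bars for the SD of 3 libraries. The open circle marks *Ptk6*-/- replicate 3. *Ptk6* and *Pagr1a* are low and *Scgb1a1* and *Sftpc* present in all 3 *Ptk6*-/- libraries. No gene shown overlaps between the genotypes, which was a condition of choice for all but the called genes.

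Leaving out replicate 3 of the *Ptk6*-/- mice changed the number of calls more than any other single library. With WT replicates 1 to 3 against *Ptk6*-/- replicates 1 and 2, 659 of 18731 genes (3.52%) were called higher and 1149 (6.13%) lower. The common dispersion, a measure of the spread between mice of 1 group, was 0.171 with all 6 libraries and 0.0838 without that library. When the length trend was offset as well, 356 genes (1.9%) were called higher and 659 (3.52%) lower. Among the genes with the smallest p in that comparison, beyond those already named, were *Spen*, *Piezo1*, *Ern2*, *Ighg2b* and *Epb41l2* on the higher side and *Amn*, *Fam151a*, *Tmem37*, *Lgals3* and *Ppfia3* on the lower side. *Piezo1*, which encodes a mechanosensitive ion channel, was at 5.55, 4.67 and 6.37 CPM in the WT libraries and 18.1, 18.2 and 9.72 CPM in the *Ptk6*-/- libraries. Replicate 3 lay between the other *Ptk6*-/- libraries and WT here, and the log2 fold change was 1.47 with it and 1.72 without it. *Lgals3*, which encodes galectin 3, was at 557, 565 and 473 CPM in the WT libraries and 166, 169 and 763 CPM in the *Ptk6*-/- libraries. In this gene replicate 3 was above all WT libraries, and the log2 fold change was −0.54 with it and −1.66 without it. *Pla2g4b*, *Ptp4a1* and *H2ac18* had equally small p, but each overlaps another gene, and their loci had summed log2 fold changes of 0.69, 0.08 and −0.24 with all 6 libraries. The sums were not fitted without replicate 3, so they are not set against that fit. The *H2ac18* locus had 1395, 1788 and 1785 counts in the WT libraries and 904, 733 and 1863 in the *Ptk6*-/- libraries.

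Lists of genes for pathways and cell types were described by the median log2 fold change of their members, beside a median of 0.043 over all genes with 6 libraries, 0.030 without *Ptk6*-/- replicate 3 and −0.023 when the length trend was offset as well. Ribosomal proteins, respiratory chain subunits, alpha-defensins, erythrocyte genes and enzymes of lipid and drug metabolism were among the lists with the lowest medians. Transcripts of the mitochondrial genome, of B cells, of immunoglobulin V segments and of collagens were among those with the highest. Median transcript lengths were 2480, 2409, 557 and 1077 bases for the ribosomal protein, respiratory chain, alpha-defensin and erythrocyte lists, against 5104 for all genes. Lists of mitochondrial mRNAs and V segments, with high medians, were short too (1099 and 512 bases). The part of the length trend in the list medians was not tested. Members counted as higher or lower without further words had an unadjusted p under 0.05. Over all genes, 6.08% were higher and 5.03% lower at that level.

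**Figure D3:**
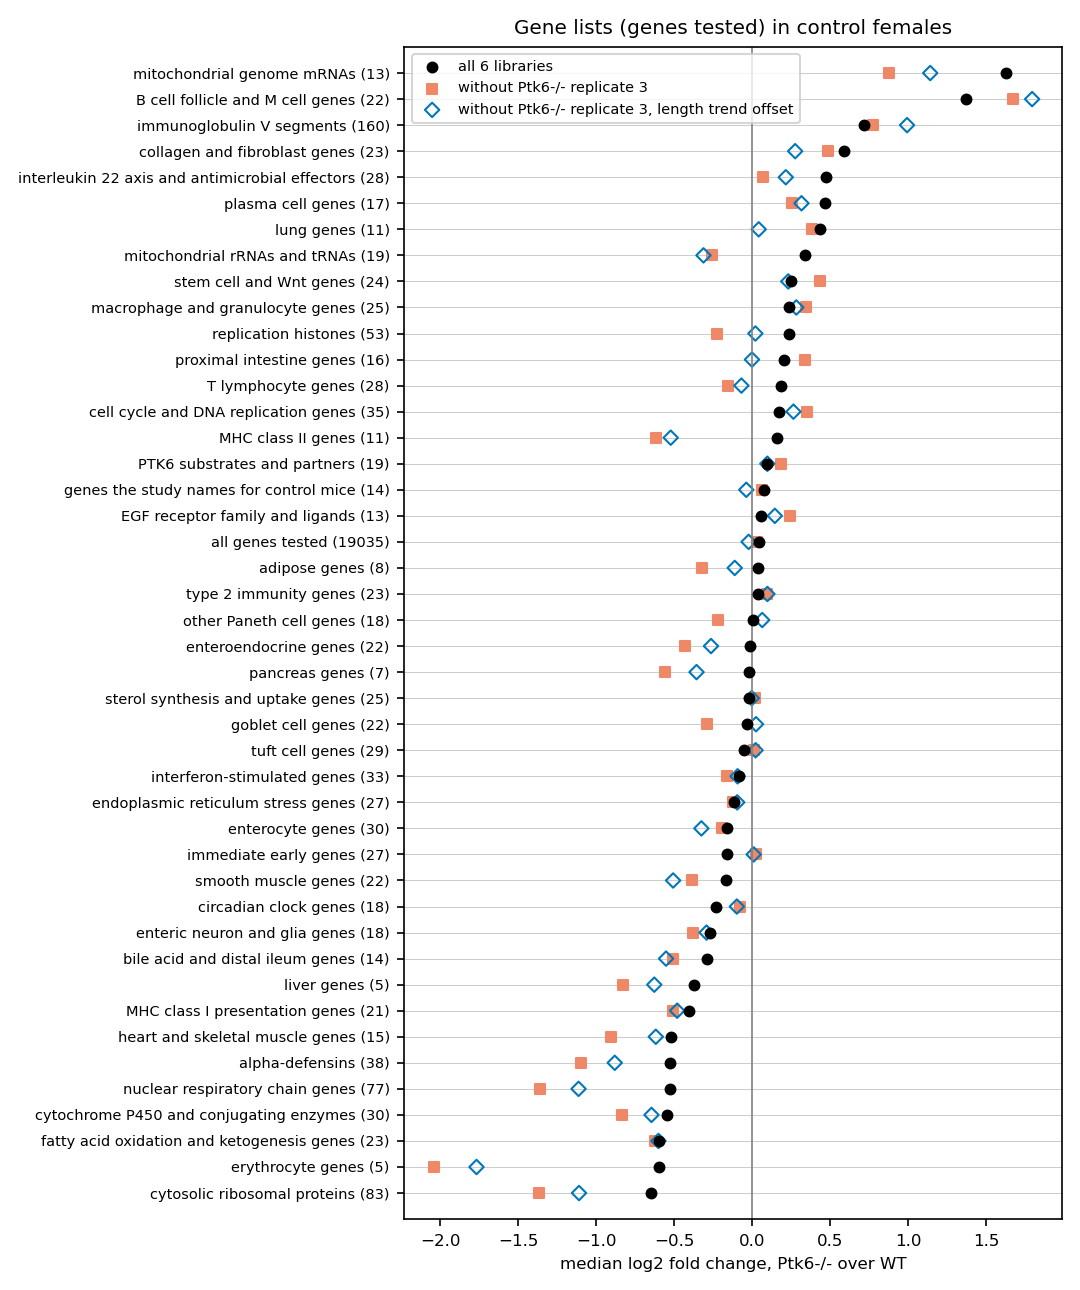
Median log2 fold change of *Ptk6*-/- over WT control females (horizontal axis) for each gene list with 5 or more genes tested (vertical axis, number tested in brackets), with all 6 libraries (black), without *Ptk6*-/- replicate 3 (orange) and without it and with a length trend offset (blue). Ribosomal proteins are at −0.65, −1.37 and −1.11, and B cell follicle genes at 1.37, 1.67 and 1.79.

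Ribosomal protein genes, which encode the proteins of the cytosolic ribosome, had lower values in *Ptk6*-/- mice for 80 of 83 genes tested, with 7 lower and 0 higher at an unadjusted p under 0.05, against 5.03% of all genes lower, and 0 called. The median log2 fold change was −0.65 with all 6 libraries, −1.37 without replicate 3 of the *Ptk6*-/- mice and −1.11 when the length trend was offset as well. In the fit without replicate 3, 72 of the 83 genes were called lower, against 6.13% of all genes, and 43 with the length offset, against 3.52%. Deviations of the list median from the average of the 6 libraries were −0.031, 0.84 and 0.41 in the WT libraries and −0.83, −1.06 and 0.67 in the *Ptk6*-/- libraries. Replicate 3 of the *Ptk6*-/- mice thus lay between WT replicates 2 and 3, and replicates 1 and 2 under every WT library. *Rpl13a*, among the members with the smallest p, was at 770.4, 1421 and 936 CPM in the WT libraries and 327, 264 and 572 CPM in the *Ptk6*-/- libraries, and *Rplp1*, for a protein of the ribosomal stalk, at 438, 724 and 582 CPM in the WT libraries and 219.8, 195 and 402 CPM in the *Ptk6*-/- libraries. For these 2 genes replicate 3 was under every WT library as well. Ribosomal protein genes have processed pseudogenes with which reads can be shared, so single members are uncertain.

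Nuclear genes for subunits of the respiratory chain had nearly the same pattern. In all, 75 of 77 had lower values in *Ptk6*-/- mice, 10 at an unadjusted p under 0.05 (5.03% of all genes), and 0 were higher at that level or called. The median log2 fold change was −0.53 with all 6 libraries, −1.36 without replicate 3 of the *Ptk6*-/- mice and −1.11 when the length trend was offset as well, with 57 genes called lower without replicate 3 (6.13% of all genes) and 44 with the length offset (3.52%). *Uqcrfs1*, which encodes the Rieske iron-sulfur protein of complex III, was at 158, 212 and 164 CPM in the WT libraries and 83.2, 77.3 and 97.8 CPM in the *Ptk6*-/- libraries. It was lower in each *Ptk6*-/- library, replicate 3 included, with a log2 fold change of −1.05 ± 0.23 (SE, edgeR adjusted p = 0.367 with 6 libraries and 0.0275 without replicate 3). *Sdhd*, a subunit of succinate dehydrogenase, had a log2 fold change of −0.78 (SE 0.21) and *Ndufv1* of complex I had −0.82 (SE 0.23). The genotypes did not overlap for these genes.

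The promoters of these 3 genes are shown because most members of the list had values in 1 direction and these carry a common short motif. Each is the 250 bases up to the RefSeq start in GRCm38.p6, read on the minus strand (*Uqcrfs1* at chr13:30545317-30545566, *Sdhd* at chr9:50603850-50604099 and *Ndufv1* at chr19:4012756-4013005). Capitals mark CCGGAA, the core of binding sites of ETS family transcription factors, in either orientation (TTCCGG as printed), which begins 43, 45 and 69 bases before the start.
Uqcrfs1: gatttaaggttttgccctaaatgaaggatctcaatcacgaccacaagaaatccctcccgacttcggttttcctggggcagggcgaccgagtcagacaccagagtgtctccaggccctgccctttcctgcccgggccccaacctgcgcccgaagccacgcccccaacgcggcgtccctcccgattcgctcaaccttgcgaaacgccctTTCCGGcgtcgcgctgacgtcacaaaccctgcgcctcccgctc
Sdhd: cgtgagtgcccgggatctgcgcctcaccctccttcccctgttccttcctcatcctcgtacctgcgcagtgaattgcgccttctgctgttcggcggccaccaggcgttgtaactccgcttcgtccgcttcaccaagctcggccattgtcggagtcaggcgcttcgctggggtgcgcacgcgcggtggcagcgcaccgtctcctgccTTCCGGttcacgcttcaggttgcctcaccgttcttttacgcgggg
Ndufv1: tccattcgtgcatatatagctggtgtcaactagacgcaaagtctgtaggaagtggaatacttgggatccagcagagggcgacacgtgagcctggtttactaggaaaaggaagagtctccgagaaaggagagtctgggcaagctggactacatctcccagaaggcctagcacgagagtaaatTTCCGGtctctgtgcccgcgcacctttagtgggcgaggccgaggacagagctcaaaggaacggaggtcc
The motif was present in this window of 19 of the 64 respiratory chain genes with a promoter in the table (29.7%) and 24 of 63 ribosomal protein genes (38.1%), against 12.2% of all 27025 promoters. The letters TATAAA were present in 6 of 64 (9.38%), 3 of 63 (4.76%) and 13.0%, and CGCATGCG in 6 of 64 (9.38%), 0 of 63 and 1.58%. The motifs were searched on both strands, and each of the 4 promoters printed holds only the motif marked in it. A match of letters is a description and shows no binding.

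Transcripts encoded by the mitochondrial genome had values in the other direction. All 13 mRNAs had a positive log2 fold change, 8 were higher at an unadjusted p under 0.05, against 6.08% of all genes, 9 did not overlap, against 9.51%, and 0 were called. The median was 1.63 with all 6 libraries, 0.88 without replicate 3 of the *Ptk6*-/- mice and 1.14 when the length trend was offset as well. The sums over the 13 mRNAs were 21849 to 29739 CPM in WT and 35266 to 103090.0 CPM in *Ptk6*-/-, the highest of them in replicate 3 of the *Ptk6*-/- mice. The gene with the smallest p was *mt-Nd4l*, a subunit of complex I, at 68.8, 42.9 and 52.96 CPM in the WT libraries and 278, 504 and 349 CPM in the *Ptk6*-/- libraries, with a log2 fold change of 2.78 ± 0.33 (SE, edgeR adjusted p = 0.124). For *mt-Nd4l* replicate 3 was not the highest library, and the log2 fold change without it was 2.84 (edgeR adjusted p = 0.0275). The nuclear pseudogene *Gm10222* had nearly the same counts as *mt-Nd4l* in each library, so reads of this sequence cannot be assigned to one of them. Other nuclear pseudogenes near *Gm10222* on chromosome 1 had many counts too. *Gm28661*, *Gm29216*, *Gm28437* and *Gm28439* had log2 fold changes of 0.77, 0.28, 0.42 and 2.47. How reads were shared between these and the mitochondrial genes was not tested, so the list median is uncertain. The mRNA of *mt-Atp8*, a subunit of ATP synthase, was at 248, 85.6 and 225 CPM in the WT libraries and 664, 969.7 and 1537 CPM in the *Ptk6*-/- libraries, a log2 fold change of 2.50 (SE 0.50). Members differed, since *mt-Co1* and *mt-Co2*, for cytochrome oxidase subunits, had log2 fold changes of 0.75 and 0.79, and 5 of the 13 were called higher without replicate 3, against 3.52% of all genes. Values for mitochondrial transcripts move with the share of mitochondrial reads, which was 4.44%, 5.66% and 8.54% in the *Ptk6*-/- libraries and 2.19% to 3.21% in WT, and the part of RNA quality or tissue handling in it was not tested.

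**Figure D4:**
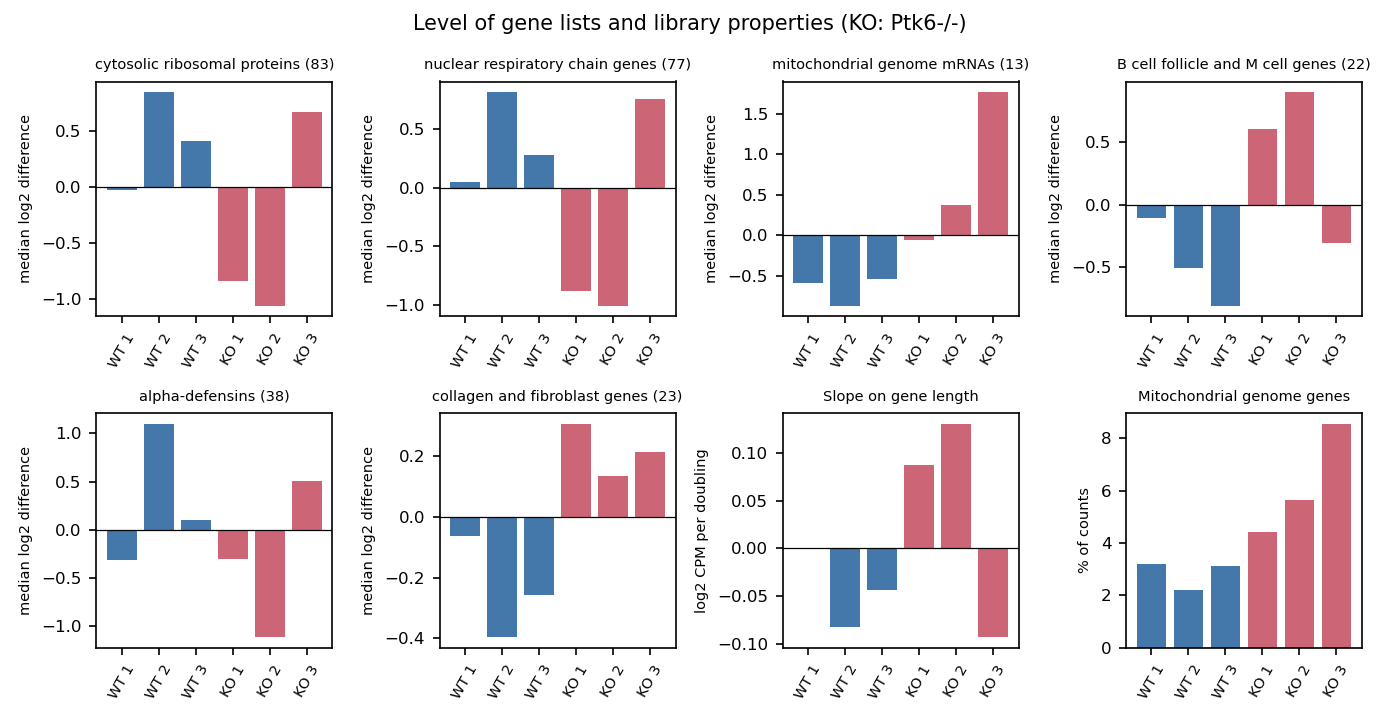
Median over list members of the log2 difference from the gene's average over the 6 libraries (vertical axes of the first 6 panels), and, in the last 2 panels, each library's slope of log2 CPM against the log2 length of the gene and its percentage of mitochondrial counts, with WT in blue and *Ptk6*-/- in red. Ribosomal protein and respiratory chain genes are below 0 in *Ptk6*-/- replicates 1 and 2 and above 0 in replicate 3, while B cell follicle genes are above 0 in replicates 1 and 2 only.

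Transcripts of B cells had higher values in *Ptk6*-/- mice. Of 22 genes for B cell follicles and the M cells that cover them, 19 had a positive log2 fold change and 11 were higher at an unadjusted p under 0.05, against 6.08% of all genes, with 0 lower and 0 called. The median log2 fold change was 1.37 with all 6 libraries, 1.67 without replicate 3 of the *Ptk6*-/- mice and 1.79 when the length trend was offset as well, and 8 genes were called higher in each of the last 2 fits, against 3.52% and 1.9% of all genes. *Ms4a1*, which encodes the B cell antigen CD20, was at 1.29, 0.440 and 0.289 CPM in the WT libraries and 4.14, 6.19 and 1.61 CPM in the *Ptk6*-/- libraries. Its log2 fold change was 2.56 ± 0.70 (SE, edgeR adjusted p = 0.367; 2.94 and 0.0278 without replicate 3). *Fcmr*, the receptor for IgM, was at 1.53, 0.132 and 0.333 CPM in the WT libraries and 6.75, 8.68 and 2.02 CPM in the *Ptk6*-/- libraries, and *Fcer2a* (CD23, of follicular B cells) at 1.10, 0.396 and 0.133 CPM in the WT libraries and 5.80, 8.13 and 0.732 CPM in the *Ptk6*-/- libraries. In these genes replicates 1 and 2 of the *Ptk6*-/- mice were high, and replicate 3 was near or within the range of the WT libraries.

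Other members of the list varied. *Cd22*, *Cxcr5* (the chemokine receptor that guides B cells into follicles), *Bank1* and *Tnfrsf13c* (the receptor for BAFF) had log2 fold changes of 2.08, 2.68, 1.88 and 1.73, and each was called higher without replicate 3. *Cr2*, which marks follicular dendritic cells and B cells, had 2.96 with an SE of 1.29. *Gp2*, a marker of M cells, was at 1.49, 1.01 and 0.266 CPM in the WT libraries and 0.769, 1.96 and 0.410 CPM in the *Ptk6*-/- libraries and overlapped between the genotypes, with a log2 fold change of 0.19.

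Antibody genes were less uniform. Of 160 immunoglobulin V segments tested, 28 were higher and 3 lower at an unadjusted p under 0.05, against 6.08% and 5.03% of all genes, and their median was 0.72 with all 6 libraries, 0.77 without replicate 3 of the *Ptk6*-/- mice and 0.99 when the length trend was offset as well. Their sum was 1202 to 1753 CPM in WT and 1236 to 2640.1 CPM in *Ptk6*-/-, and *Ptk6*-/- replicate 3 lay within the range of WT. *Ighm*, which encodes the heavy chain of IgM, was at 30.3, 16.6 and 13.9 CPM in the WT libraries and 65.4, 85.1 and 28.5 CPM in the *Ptk6*-/- libraries, a log2 fold change of 1.56 (SE 0.46). *Pou2af1*, a coactivator of B cells and plasma cells, had 1.34 and no overlap. Both were called higher without replicate 3 (edgeR adjusted p = 0.0275). *Igha*, the heavy chain of the IgA that intestinal plasma cells secrete, had −0.14 and *Sdc1* (syndecan 1) −0.40. The list of 17 plasma cell genes had a median of 0.47 with 2 higher at an unadjusted p under 0.05. V segments are short and similar to each other, and reads can be split between them.

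Genes of MHC class II presentation split into 2 groups. *H2-Oa*, *H2-Ob* and *H2-Eb2*, of which the first 2 encode the H2-O protein of B cells, had log2 fold changes of 1.24, 1.52 and 1.40 and were called higher without replicate 3. The abundant *H2-Aa* and *H2-Eb1*, which epithelium and dendritic cells express too, were at −0.43 and −0.38 with all libraries and were called lower without replicate 3. Of the 11 genes, 3 were called higher and 2 lower without replicate 3, against 3.52% and 6.13% of all genes. With the length offset as well, 3 were called higher and 1 lower, against 1.9% and 3.52%. The median of the 11 genes changed sign, from 0.16 with 6 libraries to −0.62 without replicate 3, and was −0.52 with the length offset as well. T lymphocyte genes had 1 of 28 higher at an unadjusted p under 0.05, the helper T cell coreceptor *Cd4* (log2 fold change 1.01, SE 0.27), and a median of 0.18. Macrophage and granulocyte genes had 1 of 25 higher, *Cd68*, and a median of 0.24. Interferon-stimulated genes had 3 higher and 3 lower of 33, with *Isg15* at −1.48 and *Mx1* at 1.08 on the log2 scale.

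Collagens and other fibroblast genes were higher in *Ptk6*-/- mice by values that did not pass the adjusted test. Of 23 genes, 21 had a positive log2 fold change, 8 were higher and 0 lower at an unadjusted p under 0.05, and 10 did not overlap, against 9.51% of all genes. The median was 0.59 with all 6 libraries, 0.48 without replicate 3 of the *Ptk6*-/- mice and 0.27 when the length trend was offset as well. All 3 *Ptk6*-/- libraries were above all 3 WT libraries in the list median (−0.062, −0.40 and −0.26 in the WT libraries and 0.31, 0.13 and 0.22 in the *Ptk6*-/- libraries). *Bgn*, which encodes the matrix proteoglycan biglycan, was at 59.6, 51.7 and 66.4 CPM in the WT libraries and 105, 104 and 166 CPM in the *Ptk6*-/- libraries, with a log2 fold change of 1.08 (SE 0.26). *Col1a1*, the main chain of type I collagen, was at 80.1, 68.5 and 69.7 CPM in the WT libraries and 108, 95.2 and 214 CPM in the *Ptk6*-/- libraries. *Col15a1* and *Col6a3* had log2 fold changes of 0.82 and 1.04. The transcripts of this list are long, with a median length of 9837 bases against 5104 for all genes, and the median was lower with the length offset. Smooth muscle genes had 1 of 22 higher and 2 lower, and neuron and glia genes had 3 of 18 lower (among them *Gap43* and *Prph*, with log2 fold changes of −1.14 and −1.12).

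Genes for the oxidation of fatty acids had lower values. Of 23 tested, 7 were lower and 1 higher at an unadjusted p under 0.05, against 5.03% and 6.08% of all genes, and the median log2 fold change was −0.60 with all 6 libraries, −0.63 without replicate 3 of the *Ptk6*-/- mice and −0.60 when the length trend was offset as well. *Acaa1b*, a peroxisomal thiolase, was at 14.99, 14.5 and 23.3 CPM in the WT libraries and 4.09, 6.12 and 9.54 CPM in the *Ptk6*-/- libraries, a log2 fold change of −1.42 (SE 0.37). *Acadvl*, the very long chain acyl-CoA dehydrogenase of mitochondria, was at 183, 195 and 203 CPM in the WT libraries and 104, 101 and 134 CPM in the *Ptk6*-/- libraries. For both no *Ptk6*-/- library reached a WT library. *Pdk4*, *Plin2* and *Acadm* had log2 fold changes of −0.94, −0.74 and −0.60. The gene in the other direction was *Cpt1a*, which encodes the carnitine palmitoyltransferase that admits fatty acids into mitochondria, with 0.88. *Angptl4* and *Acaa1b* were among the 4 genes called lower without replicate 3, against 6.13% of all genes, and *Cpt1a* was the gene called higher.

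Enzymes of drug and steroid metabolism had lower values in 23 of 30 genes, with 9 lower and 0 higher at an unadjusted p under 0.05, against 5.03% of all genes lower, and 10 lower without overlap, against 9.37%. The median was −0.55 with all 6 libraries, −0.83 without replicate 3 of the *Ptk6*-/- mice and −0.65 when the length trend was offset as well. *Cyp3a11*, a main drug-metabolizing cytochrome P450, was at 247, 146 and 316 CPM in the WT libraries and 93.5, 118 and 78.1 CPM in the *Ptk6*-/- libraries. *Cyp2b10*, a target of the receptor CAR, was at 69.8, 29.96 and 96.3 CPM in the WT libraries and 17.4, 13.7 and 29.5 CPM in the *Ptk6*-/- libraries. Both were lower in every *Ptk6*-/- library than in any WT library, with log2 fold changes of −1.29 (SE 0.34) and −1.69 (SE 0.47). *Sult1b1* (a sulfotransferase), *Ces2e* (a carboxylesterase) and *Gsta1* (a glutathione transferase) had −0.78, −0.82 and −1.23. Without replicate 3, 6 genes were called lower, against 6.13% of all genes, and 1 with the length offset, against 3.52%, so that the last is near the share of all genes.

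Enterocyte genes as a whole had a median near that of all genes, −0.16 over 30 genes, with 1 higher and 0 lower at an unadjusted p under 0.05. The disaccharidase genes *Sis* (sucrase-isomaltase) and *Lct* (lactase) had log2 fold changes of 0.34 and −0.57. Without replicate 3, 7 were called lower, namely *Treh*, *Fabp2*, *Apoa1*, *Rbp2*, *Apoc3*, *Prap1* and *Fabp1*, against 6.13% of all genes, and 5 genes of the list with the length offset, against 3.52%. *Fabp2*, the intestinal fatty acid binding protein, was at 7775, 12236 and 12463 CPM in the WT libraries and 3227, 2892 and 10953 CPM in the *Ptk6*-/- libraries, where replicate 3 was within the range of WT. Of the bile acid and distal ileum genes, *Amn*, which encodes amnionless of the vitamin B12 receptor, was at 334, 424 and 399 CPM in the WT libraries and 103, 106 and 223 CPM in the *Ptk6*-/- libraries (log2 fold change −1.42, SE 0.36), and *Nr0b2*, the nuclear receptor SHP that bile acids induce, at 1.14, 0.308 and 3.33 CPM in the WT libraries and 0.124, 0.0881 and 0.498 CPM in the *Ptk6*-/- libraries (log2 fold change −2.77, SE 1.00). *Amn* did not overlap between the genotypes and *Nr0b2* did. *Fabp6* had 896, 2184 and 1875 CPM in the WT libraries and 311, 538 and 1632 CPM in the *Ptk6*-/- libraries, a wide spread within both genotypes, and *Slc10a2*, the ileal bile acid transporter, had a log2 fold change of −0.38.

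Alpha-defensins, the antimicrobial peptides of Paneth cells, had lower values in *Ptk6*-/- mice for 37 of 38 genes, yet 2 of 38 were lower at an unadjusted p under 0.05, near the 5.03% of all genes, 0 were without overlap and 0 were called. The median log2 fold change was −0.53 with all 6 libraries, −1.10 without replicate 3 of the *Ptk6*-/- mice and −0.88 when the length trend was offset as well, and it ranged from −1.10 to −0.0086 when 1 library was left out. Library medians were −0.31, 1.10 and 0.10 in the WT libraries and −0.30, −1.11 and 0.51 in the *Ptk6*-/- libraries, so that WT replicate 2 was high, *Ptk6*-/- replicate 2 low, and the other 4 mixed between the genotypes. Summed levels were 38628 to 102819 CPM in WT and 22549 to 76262 CPM in *Ptk6*-/-. *Defa35* was at 41.7, 129.5 and 79.5 CPM in the WT libraries and 43.5, 24.7 and 56.99 CPM in the *Ptk6*-/- libraries and *Defa34* at 512, 1582 and 684 CPM in the WT libraries and 413, 242 and 702 CPM in the *Ptk6*-/- libraries, and both overlapped. These genes have near-identical copies, between which counting can split reads. Other Paneth cell genes had a median of 0.0067 over 18 genes. *Lyz1* (lysozyme) had a log2 fold change of −0.26.

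Among goblet cell genes, 2 of 22 were higher and 0 lower at an unadjusted p under 0.05, and the median was −0.036. *Muc2*, which encodes the main secreted mucin, was at 1523, 2119 and 2928 CPM in the WT libraries and 3075, 6917 and 7518 CPM in the *Ptk6*-/- libraries. The *Ptk6*-/- libraries were above the WT libraries without overlap, with a log2 fold change of 1.41 ± 0.46 (SE, edgeR adjusted p = 0.373 with 6 libraries and 0.0861 without replicate 3). *Creb3l1*, a transcription factor of secretory cells, was at 16.96, 17.6 and 22.5 CPM in the WT libraries and 42.2, 37.6 and 71.7 CPM in the *Ptk6*-/- libraries, with 1.41 (SE 0.30). *P2ry4*, a nucleotide receptor, was at 1.53, 0.881 and 0.400 CPM in the WT libraries and 2.41, 7.58 and 0.585 CPM in the *Ptk6*-/- libraries and overlapped. *Tff3* and *Zg16*, which goblet cells secrete, and *Clca1* had log2 fold changes of −0.51, −0.40 and 0.24, and *Atoh1* and *Spdef*, which specify secretory cells, 0.39 and −0.23. *Muc2* and other goblet cell genes therefore did not share a direction.

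Tuft cell genes had a median of −0.05 over 29 genes, with 4 higher and 0 lower at an unadjusted p under 0.05. The 4 were *Plcb2*, *Hpgds*, *Plcg2* and *Ptprc*, of which at least *Plcb2*, *Plcg2* and *Ptprc* (CD45) are also expressed by leukocytes. *Dclk1*, a kinase that marks tuft cells, was at 4.73, 3.57 and 4.20 CPM in the WT libraries and 3.13, 5.62 and 3.28 CPM in the *Ptk6*-/- libraries, and *Sucnr1*, the succinate receptor, at 0.833, 0.154 and 0.555 CPM in the WT libraries and 0.347, 0.440 and 0.995 CPM in the *Ptk6*-/- libraries. The genotypes overlapped for *Dclk1* and *Sucnr1*, with log2 fold changes of −0.055 (SE 0.32) and 0.20 (SE 0.74) whose signs changed with the library left out. Type 2 immunity genes had 2 of 23 higher and 1 lower, and the alarmin *Il33* was among the higher ones with 0.96 (SE 0.24). *Il4*, *Il13* and *Il25* were too low to be tested.

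*Il22ra1*, which encodes a chain of the interleukin 22 receptor, was at 21.9, 2.91 and 9.24 CPM in the WT libraries and 52.9, 116 and 5.62 CPM in the *Ptk6*-/- libraries. Replicates 1 and 2 of the *Ptk6*-/- mice were above every WT library and replicate 3 was not, so the mean was 11.3 ± 9.64 CPM in WT and 58.1 ± 55.3 CPM in *Ptk6*-/- mice (SD, n = 3 each). For this receptor chain the log2 fold change was 2.36 ± 1.04 (SE, edgeR adjusted p = 0.454) and 2.90 without replicate 3 (edgeR adjusted p = 0.0381). Of 28 genes of the interleukin 22 axis and its antimicrobial effectors, 3 were higher and 0 lower at an unadjusted p under 0.05, among them *Fut2* (the fucosyltransferase of the epithelial surface) and *Nos2* (inducible nitric oxide synthase). *Fut2* and *Nos2* had log2 fold changes of 1.35 (SE 0.43) and 1.26 (SE 0.41) without overlap. The list had a median of 0.48, and 0.071 without replicate 3.

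Stem cell and Wnt target genes had 4 of 24 higher and 0 lower at an unadjusted p under 0.05, with a median of 0.25 with all 6 libraries, 0.43 without replicate 3 of the *Ptk6*-/- mice and 0.23 when the length trend was offset as well. *Axin2*, a direct target of Wnt signalling, was at 48.7, 31.3 and 34.8 CPM in the WT libraries and 92.6, 80.4 and 63.5 CPM in the *Ptk6*-/- libraries, and *Ephb2*, a receptor of crypt cells, at 20.5, 18.4 and 17.1 CPM in the WT libraries and 47.1, 36.4 and 25.6 CPM in the *Ptk6*-/- libraries. Both were without overlap, with log2 fold changes of 1.04 (SE 0.26) and 0.96 (SE 0.27), and both were called higher without replicate 3 (edgeR adjusted p = 0.0275). They were the 2 of 24 genes of the list called higher in that fit, against 3.52% of all genes. With the length offset as well, 1 of the 24 was called higher, against 1.9%. *Lgr5* and *Olfm4*, markers of crypt base stem cells, had 0.41 and 0.22, while *Ascl2* had −0.81. Cell cycle genes had 1 of 35 higher (*Plk1*, log2 fold change 0.83, SE 0.22) and a median of 0.17. *Mki67*, *Pcna* and *Mcm2*, which mark dividing cells, had 0.30, −0.41 and 0.25.

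Counts of higher and lower genes in this paragraph are at an unadjusted p under 0.05. Such a p was found for 6.08% of all genes (higher) and 5.03% (lower). Enteroendocrine genes had 3 of 22 higher and 1 lower, and the hormone genes moved with replicate 3: *Sst* (somatostatin), *Cck* (cholecystokinin) and *Pyy* (peptide YY) had log2 fold changes of −0.35, −0.22 and −0.017 with it and −1.65, −1.25 and −1.49 without it. Circadian genes had 4 of 18 lower and 0 higher, namely the period gene *Per3* and *Tef*, *Dbp* and *Hlf*, which encode output transcription factors of the circadian oscillator. *Dbp* was at 3.29, 14.97 and 29.02 CPM in the WT libraries and 3.35, 1.08 and 5.82 CPM in the *Ptk6*-/- libraries. Its spread within each genotype was wide and the genotypes overlapped (log2 fold change −2.21, SE 0.83). The hour at which mice were killed is not in the labels used here, and its part was not tested. Genes of the endoplasmic reticulum stress response had 2 of 27 higher and 3 lower, with *Trib3* at −1.54 and *Atf4* at −0.83, and immediate early genes had 1 of 27 higher and 2 lower. Mitochondrial rRNAs and tRNAs had 3 of 19 higher and 0 lower, and adipose genes 0 of 8 in either direction. Sterol synthesis genes had 3 of 25 higher and 3 lower. Proximal intestine genes had 1 of 16 higher and 2 lower, with *Dmbt1* at 1.53, *Adh1* at −1.07 and the calcium-binding *S100g* at −1.45. Replication histones had 3 of 53 higher and 2 lower, and MHC class I presentation genes 1 of 21 higher and 1 lower, near the shares of all genes.

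Markers of blood and of other tissues were low. Hemoglobin and other erythrocyte genes summed to 134 to 212 CPM in WT and 37.9 to 245 CPM in *Ptk6*-/-, with all 5 genes tested having negative log2 fold changes, a median of −0.60 with all 6 libraries, −2.04 without replicate 3 of the *Ptk6*-/- mice and −1.77 when the length trend was offset as well, and 0 at an unadjusted p under 0.05. They were lowest in *Ptk6*-/- replicates 1 and 2 (0.13, 0.50 and 0.89 in the WT libraries and −1.20, −1.28 and 0.69 in the *Ptk6*-/- libraries on the scale of list medians). Heart and skeletal muscle genes summed to 80.6 to 128 CPM in WT and 44.2 to 84.4 CPM in *Ptk6*-/-, liver genes to 27.8 to 45.6 CPM in WT and 19.6 to 37.9 CPM in *Ptk6*-/- and pancreas genes to 9.62 to 12.3 CPM in WT and 5.37 to 15.8 CPM in *Ptk6*-/-. In the 2 *Ptk6*-/- libraries where ribosomal protein and respiratory chain genes were low, hemoglobin transcripts were low too, and the part of blood content in any list was not tested.

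The same genes were looked up in mice that share no sample with this comparison. Of the 12 higher genes with the smallest p, 10 were tested in control males and 9 had the same direction there, and of the 12 lower genes 11 did, *Ptk6* itself included, whose direction the genotype fixes. Of all 18469 genes, 68.9% had the same direction in both sexes. Without WT replicate 1 of the control males, the library with the fewest counts, 9 of 10 and 10 of 12 did, against 70.7% of 18430 genes. In succinate-treated females 6 of 12 and 9 of 12 did, against 55.5% of 18428 genes. The library of replicate 2 of the WT females given succinate holds transcripts of heart and of the Y chromosome, and without it 5 of 12 and 10 of 12 had the same direction, against 57.3% of 18266 genes. *Pde4a*, *Zfhx2*, *mt-Nd4l* and *Iars* had log2 fold changes of 0.70, 1.13, 1.67 and 0.65 in males, and *Acaa1a*, *Angptl4* and *Ogfr* had −0.43, −0.49 and −0.45. *Arl4d* differed in sign, with −1.34 in females and 0.18 in males, but its interaction of sex and genotype did not pass (edgeR adjusted p = 0.410).

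Lists can be set side by side in the same way. Ribosomal proteins had a median log2 fold change of −0.65 in control females and −0.89 in control males, respiratory chain genes −0.53 and −0.61, and alpha-defensins −0.53 and −1.05. B cell follicle genes had 1.37 in females and −0.24 in males, fatty acid oxidation genes −0.60 and −0.037, drug-metabolizing enzymes −0.55 and −0.018, and collagens 0.59 and 0.33. Mitochondrial mRNAs were at 1.63 in control females, 0.21 in control males and −1.65 in succinate-treated females. The difference of list medians between these groups was not tested. WT replicate 1 of the control males had 22826652 counts, the fewest of the 12 control libraries. Without it, B cell follicle genes had a median of 0.33 in males, which turned the direction, *Angptl4* had a log2 fold change of 0.015 in place of −0.49, and ribosomal proteins, respiratory chain genes and alpha-defensins had −0.73, −0.54 and −0.95. Without WT replicate 2 of the succinate-treated females, the median of mitochondrial mRNAs there was −0.27 in place of −1.65. For single genes the interaction of sex and genotype over 12 control libraries passed the threshold for 0 of 20428 genes (0%), with 947 at an unadjusted p under 0.05 and a smallest edgeR adjusted p of 0.410. The interaction of succinate and genotype in females passed for 0 of 20531 genes (0%), with 1327 at an unadjusted p under 0.05 and a smallest edgeR adjusted p of 0.752.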

How the data were processed

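Whole distal jejunum RNA of 1 mouse per library was sequenced after poly(A) selection with a stranded kit. The authors trimmed reads with Cutadapt, mapped them with HISAT2 and assembled them with StringTie and gffcompare, and the submitters' processing notes name GRCm39. The count values deposited are reads per gene without normalization, and the counting tool is not given in the sources used here. The FPKM values deposited were made by the authors with StringTie and ballgown, and served here for gene lengths and 1 alternative. Columns were assigned by the sex, genotype, treatment and replicate in their names, and no column belonged to other samples.

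The main test was the quasi-likelihood F-test of edgeR 4.0.16 after TMM normalization (2-sided, R 4.3.3). DESeq2 1.42.0 and limma 3.58.1 gave alternatives. The study's methods name DESeq2 for groups, which was run as an alternative. Levels are TMM-normalized CPM with the SD of 3 mice. The SE of a log2 fold change was derived from the test, as its absolute value divided by the square root of the F statistic. A fold against a group at 0 used a floor of 3 counts per library. The comparison, the alternatives, 45 gene lists and the rule for named genes were chosen with earlier results of these data known, so a match with such results is no independent support. Named were the genes called, the 12 per direction with the smallest p and no overlap of libraries (mean of at least 1 CPM, no Gm, Rik or clone name), the 10 per direction without *Ptk6*-/- replicate 3, the genes the study names for control mice, and up to 4 members per list with the smallest p and defining members. Other members of lists were named as examples after their values were seen. Lists were described by counts and medians, with no test. Genes with fewer than 10 counts in 3 libraries were left out. Depth and counting floors cover counting error only. With 3 mice against 3 an exact permutation test cannot give a p under 0.1, so single values were tested through the fit over all genes. Promoter sequences are from RefSeq (GRCm38.p6). Protein sequences were not used here, and some members of lists are not reported here.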

Additional observations from a re-analysis of the deposited data

Results flagged for a closer look

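*Scgb1a1*, the airway secretoglobin that was called higher in untreated female *Ptk6*-/- mice, was also present outside this comparison in 1 WT library. Replicate 3 of the succinate-treated WT females had 404 counts, against 0 in replicates 1 and 2 of the same group and 0 in the 3 WT control females. The same library had 106 counts of *Sftpc* and 53 of *Cyp2f2*. The cause was not tested.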

How the results depend on the processing

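With all 6 libraries, 1 gene was called higher and 2 lower. This number depended on the setting. DESeq2 with its default filtering called 119 higher and 56 lower (175 in all, of which 136 were also called by edgeR without *Ptk6*-/- replicate 3). Limma's voom with sample quality weights called 822 higher and 1150 lower and gave *Ptk6*-/- replicate 3 a weight of 0.159. Fitting the 12 control libraries together called 56 higher and 39 lower, and fitting all 24 called 0 higher and 1 lower. Limma on log2(FPKM + 1) called 2 higher, and requiring 10 counts in all 6 libraries 0 higher. The size factors of DESeq2, keeping every gene with a count, the length offset alone, library sizes without mitochondrial and 18S ribosomal RNA genes and no fold threshold gave 1 higher and 2 lower each. Leaving out 1 library gave 0 to 659 higher and 0 to 1149 lower, the highest without *Ptk6*-/- replicate 3, and 0 to 656 and 0 to 1123 when genes with 10 counts in 2 libraries were admitted. With that library left out and the length trend offset, 356 were higher and 659 lower. The last 2 settings were added after the data were seen, as were the summed loci, the interaction with succinate and the values of males and succinate-treated mice without 1 WT library.

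With the replicate number as a block, 0 genes were called higher and 0 lower. Same-numbered mice are not stated to be paired. The correlations of deviations from the group means were 0.281, −0.427 and −0.031 for numbers 1 to 3. These deviations also carry the length trend of each library, so they cannot show whether the mice were paired. For the interaction of sex and genotype, edgeR called 0 genes, DESeq2 19 and voom 7. The log2 fold change reversed in sign under some setting for *Mki67* (−0.011 to 0.69), *Sucnr1* (−0.37 to 0.74 and −0.33 with voom and −0.098 with the offset and without *Ptk6*-/- replicate 3), *Dclk1* (−0.37 to 0.10), *Stat3* (−0.16 to 0.57 and −0.037 with the length offset), *Khdrbs1* (−0.12 to 0.55), *Lyz1* (−0.53 to 0.047), *Cck* (−1.25 to 0.13), *Pyy* (−1.49 to 0.39), *Sst* (−1.65 to 0.043), *Fabp1* (−1.10 to 0.19), *Olfm4* (−0.34 to 0.52), *Gp2* (−0.63 to 0.72), *Igha* (−0.38 to 0.14) and *Napsa* (−0.069 to 0.38), where the ranges are those with 1 library left out. The cause was not tested. At this depth, genes with few counts such as *Il4*, *Il13* and *Il25* could not be tested.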
